A study of Mus musculus with 8 samples.

Results

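The genes described here are Ifit1, Ifit2, Ifit3, Rsad2, Oasl1, Oasl2, Mx2, Isg15, Usp18 and Irf7, a set of antiviral genes that cells switch on in response to type I interferon. They were taken by name from the annotation of the mouse array, where 14 of the 56567 probes carried 1 of these 10 gene names, out of 37058 gene names in all, and 13 of the 14 probes were bright enough to be tested. The samples were CT26 tumors, grown from a murine colorectal cancer cell line implanted under the skin (500000 cells) in the flank of mice, which the study's methods give as female BALB/c mice bought at 6 to 10 weeks of age. Treatment began at a tumor volume of 100 to 200 mm3 and lasted 2 weeks. One group received vehicle, another TP-16 (labelled BY001), an antagonist of the prostaglandin E2 receptor EP4, by mouth at 75 mg/kg daily, the third the anti-PD-1 antibody at 50 μg per mouse into the peritoneum with 2 doses a week, and the combination group received both agents. Total RNA of the whole tumor was hybridised to 1-colour Agilent arrays, with 2 arrays per group. The series describes the pair as independent biological replicates but does not say whether a sample was 1 tumor or a pool.

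Type I interferon binds the receptor Ifnar1 and Ifnar2, whose kinases activate transcription factors, among them Stat2, that enter the nucleus with Irf9 and bind the interferon-stimulated response element in the promoters of its target genes. The products of those targets block viral RNA, translation and budding, tag proteins with Isg15, or feed back on the pathway. Interferon gamma acts through another receptor, and many of its targets overlap with those of type I interferon, so that in a tumor the same transcripts can follow either cytokine.

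Because the response element is the sequence that these genes are known to share, the promoters of the members were searched for its core, GAAANNGAAA, or TTTCNNTTTC when read on the other strand. The RefSeq promoter table of the GRCm38.p6 build holds 8 of the 10 genes in 9 windows (Ifit2 has 2), each of 300 bases (250 before the start of the transcript and 50 after it). Usp18 and Mx2 have no entry in that table. The core was present in 4 of these 8 genes, against 3.99% of the 27025 gene symbols in the table and 3.44% of its 32851 windows. The 160 bases before the start are shown for these 4 genes, with the matches in capitals. They lie on the minus strand at chr4:156200819-156200978 (Isg15) and chr12:26456453-26456612 (Rsad2) and on the plus strand at chr19:34583369-34583528 (Ifit3) and chr19:34640729-34640888 (Ifit1).
Isg15: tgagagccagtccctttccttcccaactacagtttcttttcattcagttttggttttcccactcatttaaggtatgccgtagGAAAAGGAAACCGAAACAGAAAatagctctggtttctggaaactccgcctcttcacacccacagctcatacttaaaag
Rsad2: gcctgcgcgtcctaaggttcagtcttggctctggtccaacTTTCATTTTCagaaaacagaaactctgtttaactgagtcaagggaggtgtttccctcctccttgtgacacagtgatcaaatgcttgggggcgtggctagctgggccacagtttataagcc
Ifit3: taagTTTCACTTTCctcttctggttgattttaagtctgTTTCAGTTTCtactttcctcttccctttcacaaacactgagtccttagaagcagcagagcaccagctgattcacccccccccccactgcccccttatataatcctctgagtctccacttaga
Ifit1: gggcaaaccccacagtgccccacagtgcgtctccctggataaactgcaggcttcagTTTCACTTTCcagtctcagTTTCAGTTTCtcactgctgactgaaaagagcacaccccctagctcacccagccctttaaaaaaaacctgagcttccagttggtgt
The Isg15 promoter held 3 overlapping copies of the core that began 78, 72 and 66 bases before the start. Ifit3 held 2 copies, at 156 and 122 bases, and Ifit1 held 2, at 104 and 85 bases, while Rsad2 held 1 at 120 bases. The windows of Ifit2, Oasl1, Oasl2 and Irf7 held no match to these letters. A match is a description of the sequence and says nothing of binding in these tumors.

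All 8 arrays came from 1 slide, with vehicle and TP-16 in row 1 and both antibody groups in row 2, and with both TP-16 groups in columns 3 and 4 and the others in columns 1 and 2, so that treatment and place on the slide cannot be told apart in any comparison. The intensity at the 75th percentile ran from 371 to 734, between 51.4% and 59.7% of probes were well above background, and no spot was saturated. Levels are given below on a log2 scale relative to the 75th percentile of each array's intensities, so a level of 0 equals that percentile, and levels of different genes are not compared because probes differ in brightness. Apart from 1 probe of Mx2 that was not well above background on any array, the probes of the members were well above background on all 8 arrays. Of 7 epithelial markers, chosen for the colon origin of the line, 3 were well above background on all arrays and Vil1 on none.

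The IFIT proteins recognise viral RNA and hold back its translation. Their genes lie side by side on chromosome 19, with probes at chr19:34650244-34650303 (Ifit2), chr19:34663105-34663164 (Ifit3) and chr19:34723827-34723886 (Ifit1) in the mm9 build of the array annotation. The level of Ifit1 was 0.67 and 0.85 on the vehicle arrays, 1.62 and 1.91 with TP-16, 1.92 and 1.59 with anti-PD-1, and 1.89 and 2.17 with the combination. The level of Ifit3 was 1.51 and 1.90 with vehicle, 2.76 and 3.10 with TP-16, 3.18 and 2.68 with anti-PD-1, and 3.23 and 3.67 with the combination. In both genes the treated arrays lay above the vehicle arrays and the single agents overlapped each other. Ifit2 stood at 0.03 and 0.02 with vehicle, 0.69 and 0.57 with TP-16, 0.65 and 0.40 with anti-PD-1, and 1.24 and 1.76 with the combination. Here both combination arrays lay above the other 6, by at least 0.55. Ifit3b, a close copy of Ifit3 with its own probe, had differences within 0.0616 of those of Ifit3 in every comparison, and how far each probe reads the other transcript was not tested.

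Rsad2 encodes viperin, a radical SAM enzyme that makes a chain-terminating nucleotide. On its brighter probe (chr12:27127859-27127918) the level was 0.90 and 0.86 with vehicle, 1.72 and 1.49 with TP-16, 1.91 and 1.61 with anti-PD-1, and 2.15 and 2.99 with the combination. The combination arrays were again above all others, by at least 0.24, and differed from each other more than any other pair did for this gene. A second Rsad2 probe and a second Irf7 probe read other stretches of the transcripts that span an intron, so that their sequences, shown here, test whether a gene's change is seen elsewhere on its mRNA.
Rsad2 (minus strand, chr12:27135585-27138886, mm9): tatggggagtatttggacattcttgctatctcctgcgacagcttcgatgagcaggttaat
Irf7 (minus strand, chr7:148450664-148451014, mm9): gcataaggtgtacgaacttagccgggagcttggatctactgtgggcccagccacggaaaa
Over the 8 arrays these probes followed the brighter probe of their gene at r = 0.940 for Rsad2 and 0.985 for Irf7, and the pair of Oasl1 probes gave 0.968 (each n = 8 arrays that all share 1 scaling per array, given as a description). The second Rsad2 probe placed the combination above the other arrays by only 0.07.

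The 2'-5' oligoadenylate synthetase-like proteins bind double-stranded RNA or promote RNA sensing, and mouse Oasl1 is known to hold back translation of Irf7. Oasl2 (chr5:115362168-115362227) had a level of 2.33 and 2.92 with vehicle, 4.27 and 4.10 with TP-16, 4.48 and 3.93 with anti-PD-1, and 4.68 and 4.66 with the combination. Its difference from vehicle was the largest of the 10 genes in all 3 treatments. Oasl1 (chr5:115387861-115387920) moved less, from 3.76 and 3.75 with vehicle to 4.23 and 4.47 with TP-16, 4.50 and 4.28 with anti-PD-1, and 4.34 and 4.48 with the combination, and the treated arrays of this gene overlapped. Mx2 (chr16:97782327-97782386), a gene of the family of dynamin-like GTPases that trap viral components, stood at -0.75 and -0.16 with vehicle, 0.48 and 0.71 with TP-16, 0.76 and 0.19 with anti-PD-1, and 0.69 and 0.95 with the combination. Whether its transcript gives a working protein in these mice was not tested.

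Isg15 encodes a ubiquitin-like modifier, and Usp18 the protease that removes it and also dampens signaling at Ifnar2. Isg15 (chr4:155573649-155573708) was at 5.06 and 5.69 with vehicle, 5.58 and 5.80 with TP-16, 6.43 and 6.01 with anti-PD-1, and 5.93 and 6.15 with the combination. It was the only 1 of the 10 genes whose TP-16 and vehicle arrays overlapped, by 0.11, which they no longer did after quantile normalization, and the only 1 in which all 4 arrays with the antibody lay above the 4 without it, an order found for 2.52% of tested probes. Usp18 (chr6:121220874-121220933) was at 1.62 and 1.88 with vehicle, 2.65 and 2.98 with TP-16, 2.996 and 2.58 with anti-PD-1, and 2.76 and 2.91 with the combination, so that the 6 treated arrays overlapped. Irf7 (chr7:148449104-148449163), the transcription factor that drives the alpha interferon genes and is itself induced by interferon, was at 5.14 and 5.77 with vehicle, 6.54 and 6.59 with TP-16, 6.84 and 6.47 with anti-PD-1, and 6.74 and 7.10 with the combination.

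**Figure D1:**
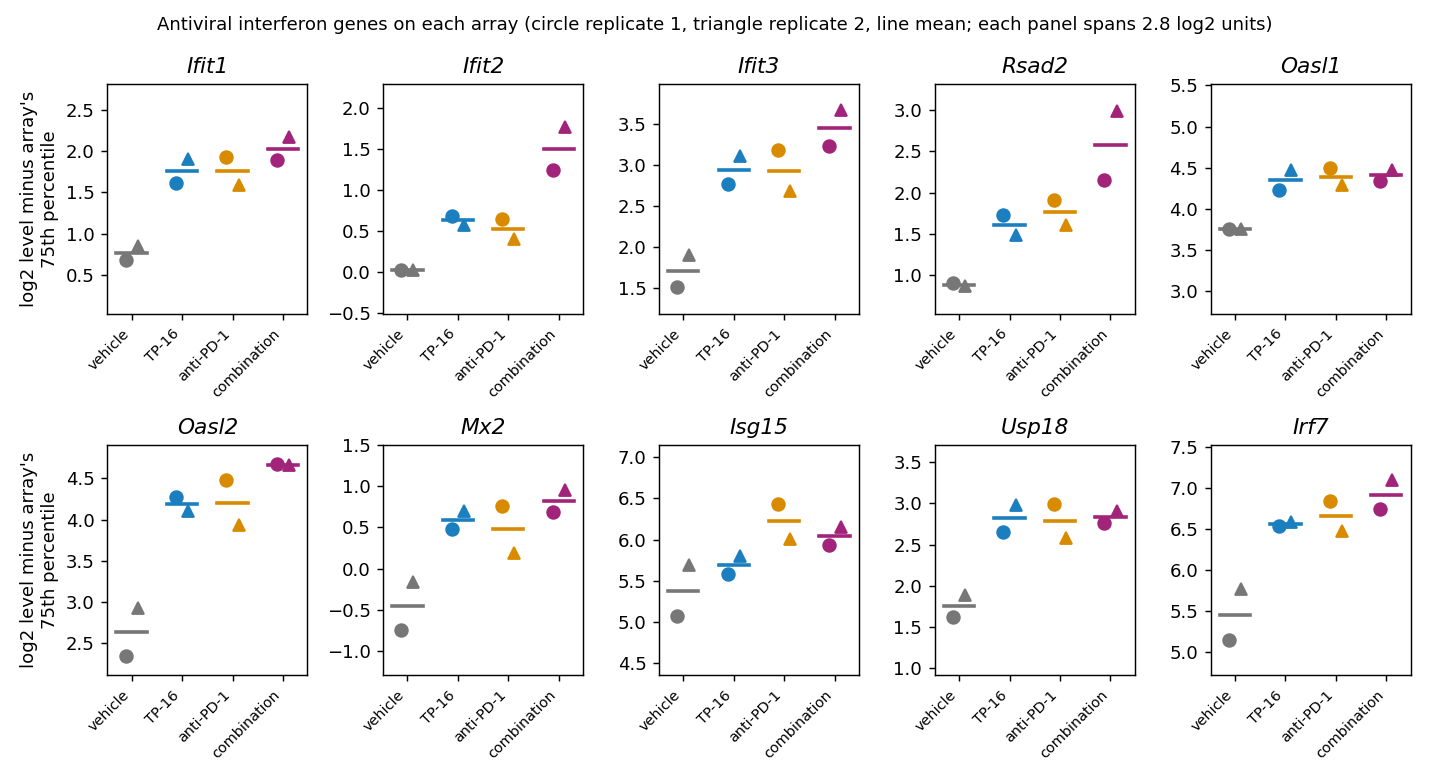
Level of each of the 10 genes on each of the 8 arrays (y axis, log2 scale with the array's 75th percentile at 0, 2.8 log2 units in every panel; circle replicate 1, triangle replicate 2, line the mean of the group). In 9 genes every treated array lies above both vehicle arrays, Isg15 being the exception, and in Ifit2 and Rsad2 the combination arrays stand apart by 0.55 and 0.24.

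In 9 of the 10 genes all 6 treated arrays lay above both vehicle arrays, an order that 8.20% of tested probes had. Both combination arrays lay above the other 6 in 4 genes (Ifit2, Rsad2, Oasl2 and Ifit3), which 13.0% of tested probes did. After quantile normalization these counts were 10 and 5. The order of the group means began with vehicle in all 10 genes and ended with the combination in 9, while TP-16 and anti-PD-1 took either place between them, and their means differed by at most 0.15 in the 9 genes other than Isg15. Replicates moved together as well. All 10 genes were lower on anti-PD-1 replicate 2 than on replicate 1, with a median difference of -0.39 against 0.00311 over all probes, and 7 of 10 were higher on vehicle replicate 2 than on replicate 1, with a median of 0.33 against 0.03.

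The first question was whether either agent alone went with a higher level of these genes. With TP-16 all 10 genes were above vehicle, with a median log2 difference of 1.02 and a range of 0.31 to 1.56, whereas the median over all tested genes was -0.15. The change of Oasl2 was 1.56 ± 0.26 (SE, n = 2 arrays per group), or 2.95-fold, that of Ifit3 1.23 ± 0.26, and that of Isg15 0.31 ± 0.26. At the threshold of the study's methods, a change of 2-fold or more and an unadjusted p no higher than 0.05, 5 genes were called (Ifit3, Oasl2, Mx2, Usp18 and Irf7), against 1.57% of probes called higher. Ifit1 was just outside, with a fold of 1.999, and Mx2 just inside, with 2.06. Rsad2 was outside on its brighter probe (1.65-fold) and inside on its second probe (2.47-fold, unadjusted p = 0.00819 in limma). After Benjamini-Hochberg adjustment over all probes in limma no gene was called (adjusted p from 0.079 to 0.472, with 0.00313% of probes called higher). At any fold 9 of 10 had an unadjusted p of at most 0.05, and 4 genes were called with normexp background correction or with trended and robust moderation. The share of all probes under these other rules was not computed. The number called at the unadjusted threshold fell to 2 without vehicle replicate 1 and to 3 without TP-16 replicate 2.

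With anti-PD-1 alone the difference from vehicle was again above 0 in all 10 genes, with a median of 0.96 and a range of 0.50 to 1.58, against -0.10 over all tested genes. Oasl2 differed by 1.58 ± 0.26 (SE, n = 2 arrays per group), or 2.98-fold, Ifit3 by 1.22 ± 0.26 and Isg15 by 0.84 ± 0.26. At the unadjusted threshold 4 genes were called (Ifit3, Oasl2, Usp18 and Irf7), where 1.67% of probes were called higher. Rsad2 was again outside on its brighter probe (1.84-fold) and inside on the second (2.42-fold, unadjusted p = 0.00896 in limma). No gene passed with limma's adjusted p (0.196 to 0.336, with 0.0282% of probes called higher). All 10 had an unadjusted p of at most 0.05 at any fold, a rule for which the share of all probes was not computed. The methods' t-test called 0 in place of the 4 genes called at the unadjusted threshold, and that count also changed when single arrays were left out. Both single-agent comparisons use the same vehicle arrays.

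The combination raised 8 of the 10 genes at least 2-fold with an adjusted p of at most 0.05 in limma, where 5.08% of tested probes were called higher by the same rule. The same 8 genes passed at the unadjusted threshold, against 6.12% of probes. The median difference of the 10 genes from vehicle was 1.37 (2.58-fold), against -0.24 over all tested genes. Oasl2 rose by 2.04 ± 0.26 (4.11-fold, adjusted p = 0.0102), Ifit3 by 1.74 ± 0.26 (3.34-fold, adjusted p = 0.0111) and Rsad2 by 1.69 ± 0.28 (3.23-fold, adjusted p = 0.0127). Ifit2, which had the smallest difference of the IFIT genes with a single agent, rose by 1.47 ± 0.20 and Irf7 by 1.46 ± 0.25. Mx2 and Ifit1 both rose by 1.27, and Usp18 by 1.08 ± 0.20. Oasl1 also passed the adjusted p (0.65 ± 0.14, adjusted p = 0.0206) but with a 1.57-fold change, and Isg15 did not pass (0.66 ± 0.26, 1.58-fold, adjusted p = 0.0974). These adjusted calls depended on combination replicate 2, without which none of the 10 genes passed although 8 still did at the unadjusted threshold. They were also lost when only the vehicle and combination arrays entered the fit, which leaves fewer arrays to estimate the spread, and by the methods' t-test (adjusted p from 0.174 to 0.333), which gave 5 calls at the unadjusted threshold.

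**Figure D2:**
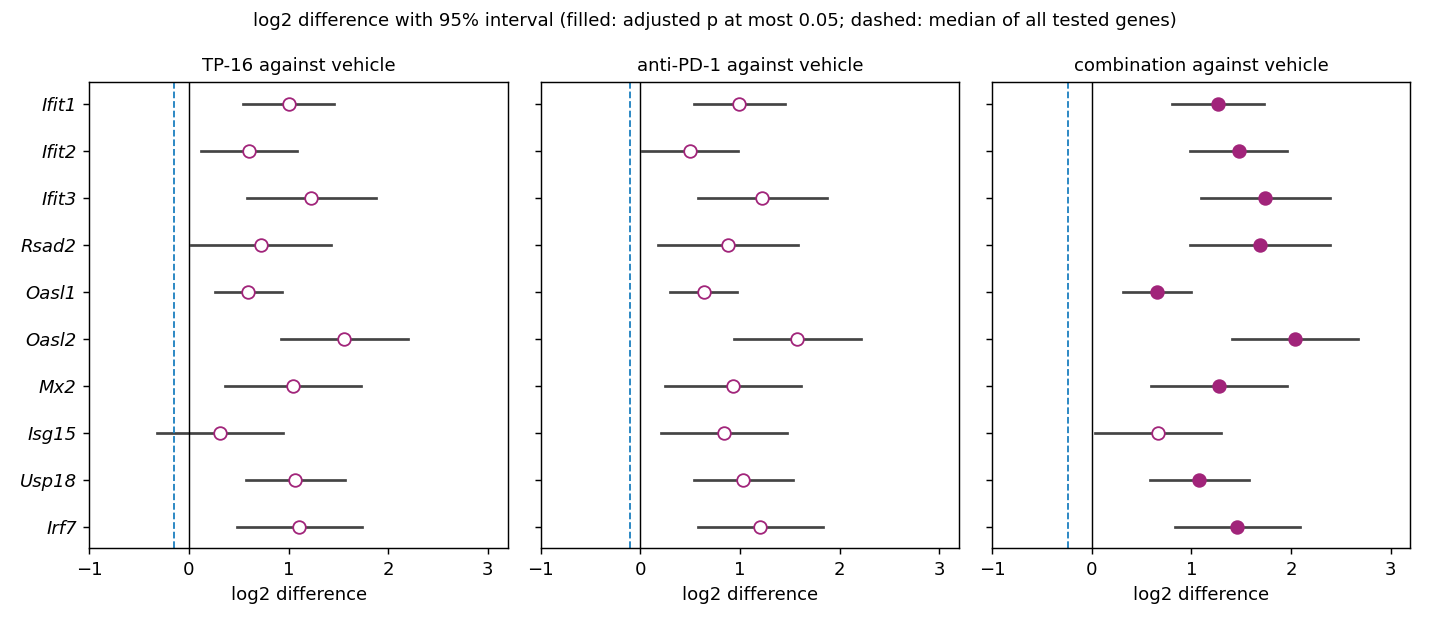
Log2 difference of each gene from vehicle (x axis) with its 95% interval for each single agent and for both together. Filled points have an adjusted p of at most 0.05, and the dashed line is the median of all tested genes. The points of all 3 panels lie right of 0, and filled points appear only with the combination, in 9 genes.

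What the second agent added was smaller. Against TP-16 alone the combination was higher in all 10 genes, by a median of 0.35 (range 0.01 to 0.97), and against anti-PD-1 alone in 9, by a median of 0.31 (range -0.18 to 0.98, where the lowest, Isg15, became 0.14 after quantile normalization). These medians became 0.59 and 0.50 after quantile normalization. The count of 10 became 8 without TP-16 replicate 1 or combination replicate 2, and that of 9 became 7 without anti-PD-1 replicate 2 or combination replicate 2, Usp18 and Oasl1 being the genes that turned. No gene reached a 2-fold difference in either comparison, while 3.52% and 2.30% of probes were called higher at the unadjusted threshold. After quantile normalization 1 gene (Rsad2, at 1.01) was called against TP-16, and without combination replicate 1 there were 2 calls in each comparison. Ifit2 and Rsad2 had the largest differences in both. Ifit2 was 0.87 ± 0.20 above TP-16 (unadjusted p = 0.00466, adjusted p = 0.133 in limma) and 0.98 ± 0.20 above anti-PD-1 (unadjusted p = 0.00267, adjusted p = 0.0722 in limma). Rsad2 was 0.97 ± 0.28 above TP-16 and 0.81 ± 0.28 above anti-PD-1, with adjusted p of 0.153 and 0.151 in limma. With normexp 1 of the 10 genes passed the adjusted p against anti-PD-1 at any fold, and none against TP-16. For Usp18 and Oasl1 the combination differed from either single agent by at most 0.06 on the brightest probes, with intervals against TP-16 from -0.48 to 0.51 for Usp18 and from -0.28 to 0.40 for Oasl1. The second Oasl1 probe gave 0.10 against TP-16 and 0.23 against anti-PD-1, and after quantile normalization the brightest Oasl1 probe gave 0.18 in both. These intervals leave room for a rise of less than 2-fold.

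Whether the 2 agents added up was asked by the difference between the combination and the sum of the single-agent changes on the log2 scale. The value was below 0 in 8 of 10 genes, with a median of -0.70, while the median of all tested genes was -0.00195 and 49.7% of them lay above 0. Among lists described below, the median was -1.16 for gamma-induced genes and -1.03 for T and NK cell markers. It was -0.62 for skeletal muscle markers and -0.50 for other interferon-induced effectors. For receptor and signaling genes it was 0.04, for nucleic acid sensing -0.05, for macrophage markers 0.47 and for red blood cell markers 1.24. Oasl2 had -1.10 ± 0.36 and Usp18 -1.02 ± 0.28, and these 2 genes passed the unadjusted threshold, as did 0.536% of probes in the same direction. Ifit2 (0.38 ± 0.28) and Rsad2 (0.09 ± 0.40) lay above 0, though Rsad2 was below 0 without TP-16 replicate 2, anti-PD-1 replicate 2 or combination replicate 2. No value passed limma's adjusted p, the lowest being 0.546. At any fold 4 genes had an unadjusted p of at most 0.05, a rule for which the share of all probes was not computed. The 2 calls became 0 after quantile normalization and between 0 and 3 when single arrays were left out. The second probe of Rsad2 gave -0.55 ± 0.47, of opposite sign to the first.

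**Figure D3:**
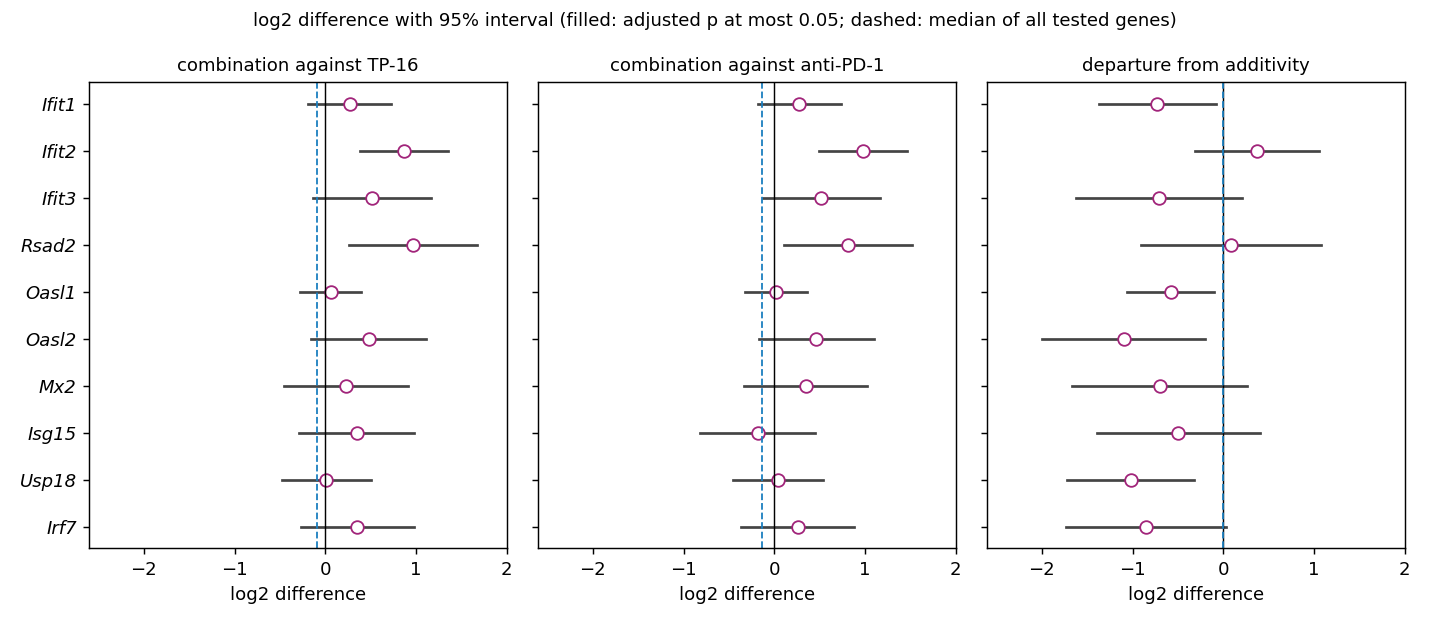
Log2 difference between the combination and each single agent, and departure from additivity on the log2 scale (x axis), with 95% intervals. Filled points would mark an adjusted p of at most 0.05, which no gene reached in the fit shown, and the dashed line is the median of all tested genes. Ifit2 and Rsad2 lie farthest right in the first 2 panels and are the only genes right of 0 in the third.

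Along the pathway the ligands did not follow the genes. Of 19 listed type I and III interferon genes 17 were on the array and 9 were tested, with median intensities of 31.5 to 57.3 per array. Ifnb1, encoding interferon beta, was at -3.51 and -3.42 with vehicle and at -3.47 and -2.82 with the combination, a difference of 0.32 ± 0.44 (adjusted p = 0.597). The other 8 were below vehicle with the combination, and 6 of the 9 passed the adjusted p downward, as did 22.9% of all tested probes. Their median of -0.99 became -0.59, with 3 passing, after quantile normalization. Before scaling, the median intensity of the 9 was 38.1 and 57.3 on the vehicle arrays and 40.6 and 36.1 on the combination arrays. The intensity at the 75th percentile, to which the levels are set, was 371 and 378 on the vehicle arrays and 607 and 734 on the combination arrays. Its part in the lower ligand levels was not tested.

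Among receptor and signaling genes, Stat2 rose by 1.83 ± 0.31 with the combination (adjusted p = 0.0126 in limma). A second Stat2 probe gave -1.24 ± 0.83 (adjusted p = 0.288). That probe was well above background on only 4 arrays and stood at -4.12 and -1.39 on the vehicle arrays. Irf9, the partner of Stat2, differed by 0.88 ± 0.28 (adjusted p = 0.0581) on its brightest probe and rose by 1.04 ± 0.28 (adjusted p = 0.0368) on its other probe. The feedback inhibitor Socs1 rose by 1.11 ± 0.22 (adjusted p = 0.0179). The receptor chain Ifnar2 rose by 0.38 ± 0.10 (adjusted p = 0.0388) on its brightest probe and by 1.03 ± 0.22 (adjusted p = 0.0216) on the other. Ifnar1 differed by -0.62 ± 0.78 on its brightest probe, with values of 0.27, -0.31 and 0.45 on its other probes. Of the 10 listed genes 7 passed the adjusted p upward at any fold and none downward, where 9.10% of tested probes passed upward and 22.9% downward. Among 17 genes of nucleic acid sensing 9 passed upward and none downward, with Ifih1, the sensor MDA5, at 1.34 ± 0.20 and Ddx58, the sensor RIG-I, at 0.98 ± 0.20 (adjusted p = 0.0109 and 0.0185). A second Ifih1 probe gave 1.30 ± 0.44 (adjusted p = 0.0687), and the other Ddx58 probes gave 0.81, 0.48 and 0.37, of which the one at 0.48 passed. Zbp1, a sensor of Z-form nucleic acid in the same list, differed by 1.78 ± 0.68 (adjusted p = 0.0935 in limma) on its brightest probe and rose by 3.32 ± 0.49 (adjusted p = 0.0109) on its other probe. The brightest probe was at 2.62 and 4.91 on the vehicle arrays and at 5.44 and 5.66 with the combination.

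Of 46 tested genes in a list of other interferon-induced effectors, 24 were raised at least 2-fold by the combination with an adjusted p of at most 0.05 (5.08% of probes), and counting any fold 33 passed upward and 2 downward (9.10% and 22.9% of probes). The median was 1.03. Oas3, a synthetase whose product activates RNase L, rose by 2.23 ± 0.22 (adjusted p = 0.0102), Mx1 by 1.73 ± 0.26, Oas2 by 1.70 ± 0.26, Cmpk2 (which neighbours Rsad2) by 1.53 ± 0.20, Ifi44 by 1.51 ± 0.27 and Xaf1 by 1.31 ± 0.29. The second probes of Mx1 (0.91 ± 0.38, adjusted p = 0.114) and Ifi44 (1.503 ± 0.56, adjusted p = 0.0863) did not pass. Bst2, which tethers virions to the cell surface, rose by 1.01 ± 0.21 and the kinase gene Eif2ak2 by 0.80 ± 0.14. Oas1a differed by 0.53 ± 0.22 (adjusted p = 0.115). Slfn5 and Oas1b were the 2 that fell, named after their values were seen, by 0.52 and 0.37, and after quantile normalization no gene of the list passed downward.

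Genes that interferon gamma induces differed more from the vehicle mean, and were less even between the vehicle arrays. All 16 tested were above vehicle with the combination, 15 of them with an adjusted p of at most 0.05 (9.10% of probes passed upward), and the median was 2.81. Ifng itself rose by 4.06 ± 0.96 (adjusted p = 0.0276), from -3.58 and -0.49 on the vehicle arrays to 1.67 and 2.38, Gbp2 by 2.64 ± 0.76 and Cxcl9 by 3.18 ± 0.95. The mean level of the 16 was 0.52 on vehicle replicate 1 and 2.82 on vehicle replicate 2, where the 10 antiviral genes had 2.03 and 2.35. Gbp2 was at 2.78 and 5.37 on the vehicle arrays and at 6.65 and 6.78 with the combination. Cxcl9 was at 0.89 and 4.11 on the vehicle arrays and at 5.68 on both combination arrays. How far the larger differences rest on vehicle replicate 1 was not tested.

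In RNA of a whole tumor, more cells of a type and more RNA per cell cannot be told apart. The summed level of 11 tested T and NK cell markers, on the linear scale relative to the 75th percentile, was 13.9 and 58.3 on the vehicle arrays, 67.3 and 61.3 with TP-16, 87.8 and 64.4 with anti-PD-1, and 79.3 and 99.7 with the combination, and 4 of them (Cd3e, Cd8a, Klrb1c and Nkg7, named after their values were seen) passed upward with the combination, by a rule that 9.10% of probes met, and 8 did with normexp. For 10 macrophage markers the sum was 169 and 225 with vehicle, 198 to 241 with the single agents, and 291 and 411 with the combination, with 6 raised at least 2-fold (5.08% of probes), while Cd14, also named afterwards, fell by 0.51 (adjusted p = 0.0337), a call lost after quantile normalization. The 9 plasmacytoid dendritic cell markers summed to 110 and 118 with vehicle and 100 to 139 with treatment. Their mean log2 level was 0.72 and 1.56 with vehicle and 1.68 and 1.85 with the combination. With an adjusted p, 3 of them (Ccr9, Klk1 and Bst2, named in the same way) were raised at least 2-fold by the combination (5.08% of probes). Bst2 also stands in the list of other interferon-induced effectors, so these sums include an interferon target. Its log2 level was 4.86 and 5.19 with vehicle and 5.92 and 6.14 with the combination. The 9 tested neutrophil markers summed to 116.4 and 106.6 with vehicle, 77.8 to 95.9 with the single agents and 70.4 and 56.3 with the combination, where, again named afterwards, S100a8 fell by 1.09, S100a9 fell by 1.20 and Mmp8 rose by 0.80. While the sum was lower, 5 of the 9 were above vehicle, with a median of 0.80 that became -0.34 with normexp. Of the 9, 1 passed the adjusted p upward and 2 downward at any fold, where 9.10% and 22.9% of probes did. After quantile normalization 4 passed upward and 2 downward, with no share of all probes computed. The 6 red blood cell markers all fell at least 2-fold with the combination, with an adjusted p of at most 0.05 in limma (7.47% of probes). Their sums went from 984 and 626 with vehicle to 142 and 178, and were 216 and 184 with TP-16 and 298 and 313 with anti-PD-1. The 5 tested epithelial markers summed to 13.4 and 9.30 with vehicle and to 5.18 and 3.47 with the combination. The 4 epidermal markers stood apart on replicate 2 of TP-16 (29.8) and of anti-PD-1 (30.6), against 2.28 to 5.39 on the other arrays, and the 8 skeletal muscle markers were lowest on vehicle replicate 1 (18.9, against 30.9 to 76.5). The part of these cell types in the levels of the antiviral genes was not tested.

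**Figure D4:**
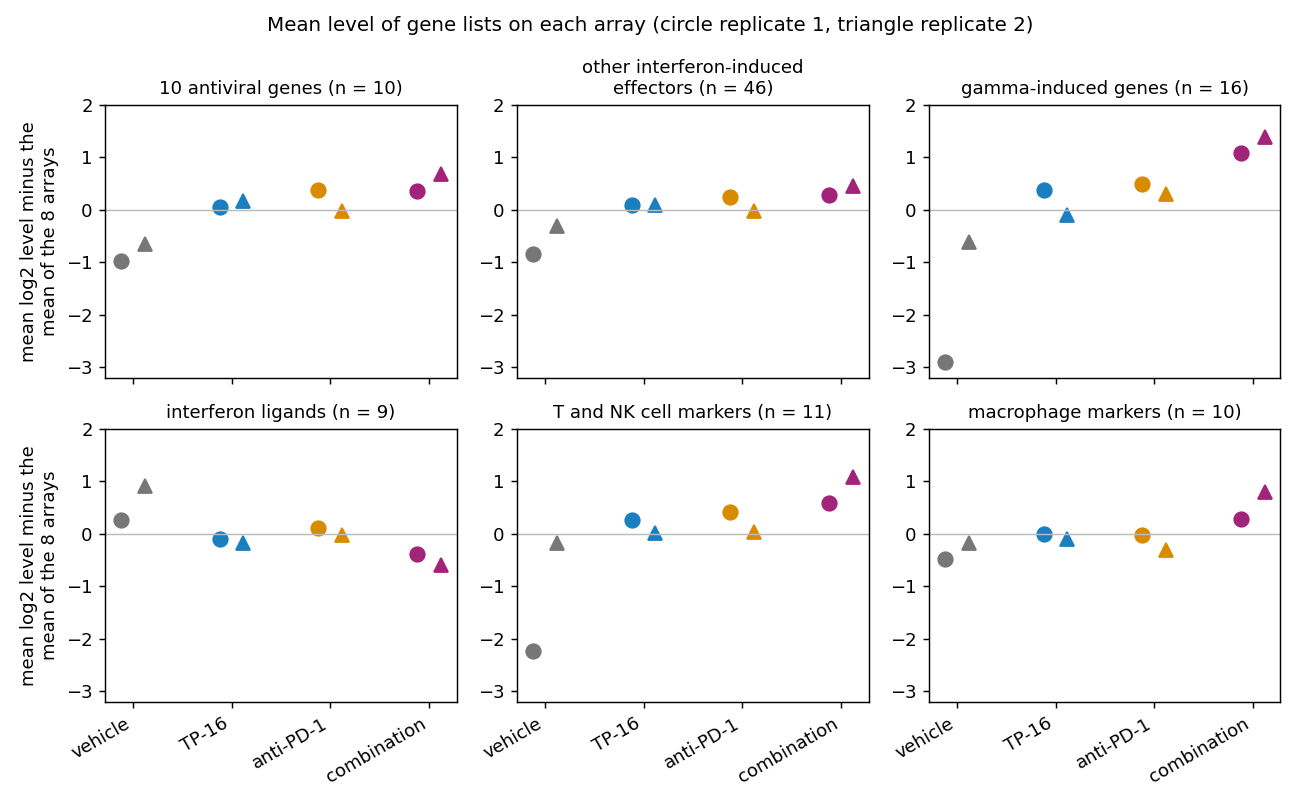
Mean log2 level of 6 gene lists on each array minus the mean of the 8 arrays (y axis; circle replicate 1, triangle replicate 2; n is the number of tested genes). For the 10 antiviral genes, the other effectors, the gamma-induced genes and the T and NK cell markers, every treated array lies above both vehicle arrays. These lists are lowest on vehicle replicate 1, by most in the gamma-induced genes and the T and NK cell markers. The ligands, dim on every array, lie lower on the treated arrays on this scale.

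Outside all the lists, the genes whose levels over the 8 arrays were most like the mean of the 10 were Phf11c (r = 0.992), Hcar2 (0.991), Cd24a (0.991), a long intergenic non-coding RNA on chromosome 6 (0.988) and C1rb (0.985), each with n = 8 arrays that share their RNA samples and scaling. Hcar2, the receptor for nicotinic acid and hydroxybutyrate, was at -1.41 and -1.19 with vehicle, -0.55 and -0.43 with TP-16, -0.16 and -0.46 with anti-PD-1, and -0.09 and 0.06 with the combination. Among the 10 themselves, r with the mean of the other 9 was highest for Ifit3 (0.996) and lowest for Isg15 (0.784), followed by Ifit2 (0.839). These 2 genes were also the least alike, with r = 0.544.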

How the data were processed

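Total RNA of 8 CT26 tumor samples was measured on 1-colour Agilent SurePrint arrays, with the groups, doses and replicate numbers that the labels give. RNA was isolated with a column kit per the labels and with TRIzol per the methods. The authors deposited scanner files with background-subtracted spot intensity values from Agilent Feature Extraction 10.7.1.1 (version from the submitters' processing notes). A further deposited file holds log2 values, made in GeneSpring according to the methods. Its columns had medians of 5.17 and followed the log2 intensities of the same arrays at r = 0.995 to 1.00, so its scale is log2 without centring per gene. Its sorted columns differed by at most 0.0652, as quantile normalization leaves them, although the sources used here name no method.

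Control spots and spots flagged as outliers were removed, 38 probes without a clean spot on some array were left out, and replicate spots were averaged. Log2 intensities were set relative to each array's 75th percentile and tested for 31912 probes (21497 gene names), those well above background on the pair of arrays of some group. All 8 arrays entered 1 fit in limma 3.58.1 (R 4.3.3), with 1 mean per group and Benjamini-Hochberg adjustment over all probes. Where a gene had several probes, the brightest was used. Departure from additivity is the combination and vehicle levels less those of the single agents. The script was tested on simulated data. The number of arrays limits the precision. The members, the lists and the rule for named genes (the 10 members, 23 further genes of the pathway lists and the 5 genes most correlated with the members outside them) were chosen with earlier results of these data known, and 1 of the further genes is not reported here. Alternatives were quantile and normexp processing, other probe filters, 1 probe per gene, a block for the replicate number, the deposited log2 values, fits restricted to the groups compared, robust and trended moderation, the methods' t-test, a minimum fold of 1.5, and fits without each array in turn. Figures used matplotlib 3.10.9 under Python 3.11.15. RefSeq sequences are on GRCm38.p6, probe positions on mm9, and the builds were not mixed.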

Additional observations from a re-analysis of the deposited data

How the results depend on the processing

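All 30 differences of the 10 genes from vehicle stayed above 0 under every setting run except that without vehicle replicate 1, under which 29 did, where Isg15 was at -0.000678 with TP-16. Shared alternatives moved the following counts of genes at a fold of 2. Adjusted calls for TP-16 rose from 0 to 4 with normexp and with trended and robust moderation. At any fold with normexp, 7 of the 10 genes passed upward with TP-16, as did 25 of 46 other effectors, while 6 of 9 ligands passed downward. The 8 adjusted calls of the combination became 0 when only the compared groups were fitted or with the methods' t-test, and 7 with no filter on dim probes. That test gave 3 unadjusted calls with TP-16 in place of 5, 0 with the antibody in place of 4 and 5 with the combination in place of 8. With quantile normalization 1 gene was called against TP-16 (median 0.59, against 0.35) and 0 in the departure from additivity. The authors' log2 values gave the same, but their sorted columns are nearly alike, as quantile normalization leaves them, so they are no separate check. A fold of 1.5 gave 9 unadjusted calls for each single agent and 2 for the combination against each of them. Quantile normalization moved the median of all probes for the combination against vehicle from -0.20 to -0.01.

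When single arrays were left out, unadjusted calls ranged from 2 to 6 for TP-16, 2 to 8 for anti-PD-1, 0 to 2 against TP-16, 0 to 2 against anti-PD-1 and 0 to 3 for the departure from additivity, and adjusted calls of the combination from 0 to 8. The median differences ranged from 0.77 to 1.14 for TP-16, 0.78 to 1.19 for anti-PD-1, 1.16 to 1.53 for the combination, 0.21 to 0.46 against TP-16, 0.0914 to 0.54 against anti-PD-1 and -0.92 to -0.47 for the departure from additivity. The cause of these changes was not tested. With the replicate block the combination gave 8 adjusted calls as before, and the block changed no call of the 10 genes. The replicate numbers did not pair the samples, with correlations of -0.19 to 0.29 between deviations of same-numbered arrays. The departure from additivity needs all 4 groups, so it had no fit of the compared groups and no t-test.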
